A study of Mus musculus with 9 samples.

Results

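Transcripts of MHC class II antigen presentation and of macrophages were followed in each mouse, to judge how much leukocyte RNA was read among sorted kidney tubular cells. The 10 genes were Cd74, H2-Aa, H2-Ab1, H2-Eb1, Ciita, C1qa, C1qb, C1qc, Csf1r and Rgs1. They were chosen by name, and all 10 were among the 24421 genes of the table and among the 15583 that passed a filter on low values (0.3 CPM or more in at least 2 of 9 libraries). CPM are a gene's counts relative to the scaled size of the library, so that libraries of different depth can be compared. RNA was sequenced from 9 mice in 3 groups of 3, and values are given below in the order of mice 1, 2 and 3 of a group. All mice were of the strain C57BL/6 and carried SLC34a1GCE, which places CreERT2 in the locus of a proximal tubular phosphate transporter, with the R26tdTomato reporter. Every group received tamoxifen at 8 weeks of age. The study's methods describe sorting of tdTomato-positive, DAPI-negative cells from kidney cortex, whereas the sample labels give the tissue as kidney. *db/m* mice, which carry 1 mutant copy of the leptin receptor gene, were the non-diabetic controls. *db/db* mice, which lack a working leptin receptor, received vehicle in drinking water for 8 weeks. *db/db*-dapa mice had the same genotype and received dapagliflozin, an inhibitor of the glucose transporter SGLT2, at 1.5 mg/kg/day for the same time. The reporter marks cells in which the Slc34a1 locus was active when tamoxifen was given, and other cells or free RNA can enter a sorted fraction.

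MHC class II molecules are pairs of an alpha and a beta chain that present peptides from endocytosed protein to CD4 T cells. The invariant chain Cd74 escorts the pairs to the endosome, and Ciita is the co-activator that switches on their genes in dendritic cells, B cells and macrophages, and in other cells under interferon gamma. In the kidney, resident macrophages and dendritic cells lie around the tubules, and the chains of complement C1q and the receptor Csf1r are common markers of macrophages.

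The libraries held between 2733314 and 9033062 counts, with the fewest in *db/db* mouse 1. A single count was worth 0.113 to 0.340 CPM, and the lowest count of any of the 10 genes in a mouse was 8, for Rgs1 in *db/db*-dapa mouse 2. Slc34a1, the gene whose locus drives the label, was read at 3530.5, 3777 and 4154 CPM in *db/m* mice, at 6196, 4404 and 4732 CPM in *db/db* mice and at 4554, 4631 and 4464 CPM in *db/db*-dapa mice. It was thus abundant in each of the 9 libraries. The 10 proximal tubular genes listed, all tested, summed to 11154, 11544 and 11455 CPM in *db/m* mice, to 14081, 11879 and 17884 CPM in *db/db* mice and to 14028, 15745 and 17884 CPM in *db/db*-dapa mice.

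For the 10 genes, mice with the same number took similar places in their groups. Mouse 1 was the highest of each group for 9 of the 10 genes. Mouse 3 was the lowest for 9 of the 10 in *db/m* and in *db/db* mice and for 8 in *db/db*-dapa mice, and had the lowest sum of pan-leukocyte markers in each group. *db/db* mouse 2 had the most haemoglobin RNA, with Hba-a2 at 521.6 CPM. *db/m* mouse 3 had the most Umod, a gene of the thick ascending limb, at 1316 CPM.

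The first comparison, *db/db* with *db/m* mice, asks what differed between diabetic and control mice. Diabetes and the loss of the leptin receptor cannot be told apart in it. None of the 10 genes passed the threshold, an adjusted p under 0.1 with an absolute log2 fold change over 1 in the quasi-likelihood test of edgeR, which 197 of 15583 genes did (1.26%). Of these 86 were higher and 111 lower in *db/db* mice. Scaling to total counts gave 141 higher and 93 lower, and moved the median log2 fold change of all genes from 0.02 to 0.13. At an unadjusted p under 0.05 there were 0 of the 10 genes, against 13.7% of all genes, and groups did not overlap for 0 of the 10, against 16.4% of all. The number of the 10 at that unadjusted p was 2 (1854 of all genes) with a block for replicate number and 2 (2014 of all genes) without *db/db* mouse 3, and 0 in the other 18 alternatives. DESeq2, limma on log2(CPM + 1) and limma's voom with library weights called 363, 199 and 262 genes, and 0 of the 10 each. The number of genes called by edgeR was 85 without *db/m* mouse 1, 126 without *db/m* mouse 3 and 113 without *db/db* mouse 2.

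The comparison of *db/db*-dapa with *db/db* mice, dapagliflozin against vehicle, asks what the drug changed. EdgeR called 0 of 15583 genes (0.0%) and so 0 of the 10. At an unadjusted p under 0.05 there were 809 genes (5.19%), among them C1qa and Rgs1. In place of these 2 of the 10 there were 5 (3178 of all genes) without *db/db* mouse 3, 5 (1055 of all genes) without *db/db*-dapa mouse 1, 7 (750 of all genes) with the replicate block and 7 (3756 of all genes) with voom, and 1 or 2 in the other 16 alternatives. The groups did not overlap for 10.2% of all genes and for 0 of the 10. DESeq2 called 13 genes and voom with library weights 449, each with Rgs1 as the 1 gene of the 10, while limma on log2(CPM + 1) called 0. Without *db/db* mouse 3 edgeR called 272 genes, C1qa and Rgs1 among them, and without *db/db*-dapa mouse 2 it called 1 gene and 0 of the 10.

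Treated *db/db*-dapa mice were also set against *db/m* mice (dapagliflozin against *db/m*), where edgeR called 164 genes (1.05%) and 0 of the 10. Csf1r and Rgs1 had an unadjusted p under 0.05, as had 18.2% of all genes, and Rgs1 alone of the 10 had groups that did not overlap, as had 28.1% of all genes. The 2 of the 10 at that unadjusted p became 0 (1410 of all genes), 1 (1475 of all genes) and 5 (3279 of all genes) without *db/db*-dapa mouse 3, 2 and 1. They became 1 (1936 of all genes) and 4 (1761 of all genes) without *db/m* mouse 1 and 3, 4 (3837 of all genes) without *db/db* mouse 3, 7 (2474 of all genes) with the block and 8 (5749 of all genes) with voom. DESeq2 called 507 genes and limma on log2(CPM + 1) 146, with 0 of the 10 in each. Voom with library weights called 1619 genes and 7 of the 10: Cd74, H2-Aa, H2-Ab1, H2-Eb1, C1qa, Csf1r and Rgs1. With a block for replicate number edgeR called 166 genes and 4 of the 10, Cd74, H2-Aa, H2-Eb1 and Csf1r, and with only the 2 groups compared 630 genes and 1 of the 10, Rgs1. With edgeR the count of genes was 37, 78 and 54 without *db/m* mouse 1, 2 and 3, 664 without *db/db* mouse 3, and 264, 14 and 41 without *db/db*-dapa mouse 1, 2 and 3. Rgs1 was called without *db/db* mouse 3. The 3 comparisons share mice, so each group enters 2 of them. In an exact permutation test, 3 mice against 3 cannot give a p under 0.1.

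**Figure D1:**
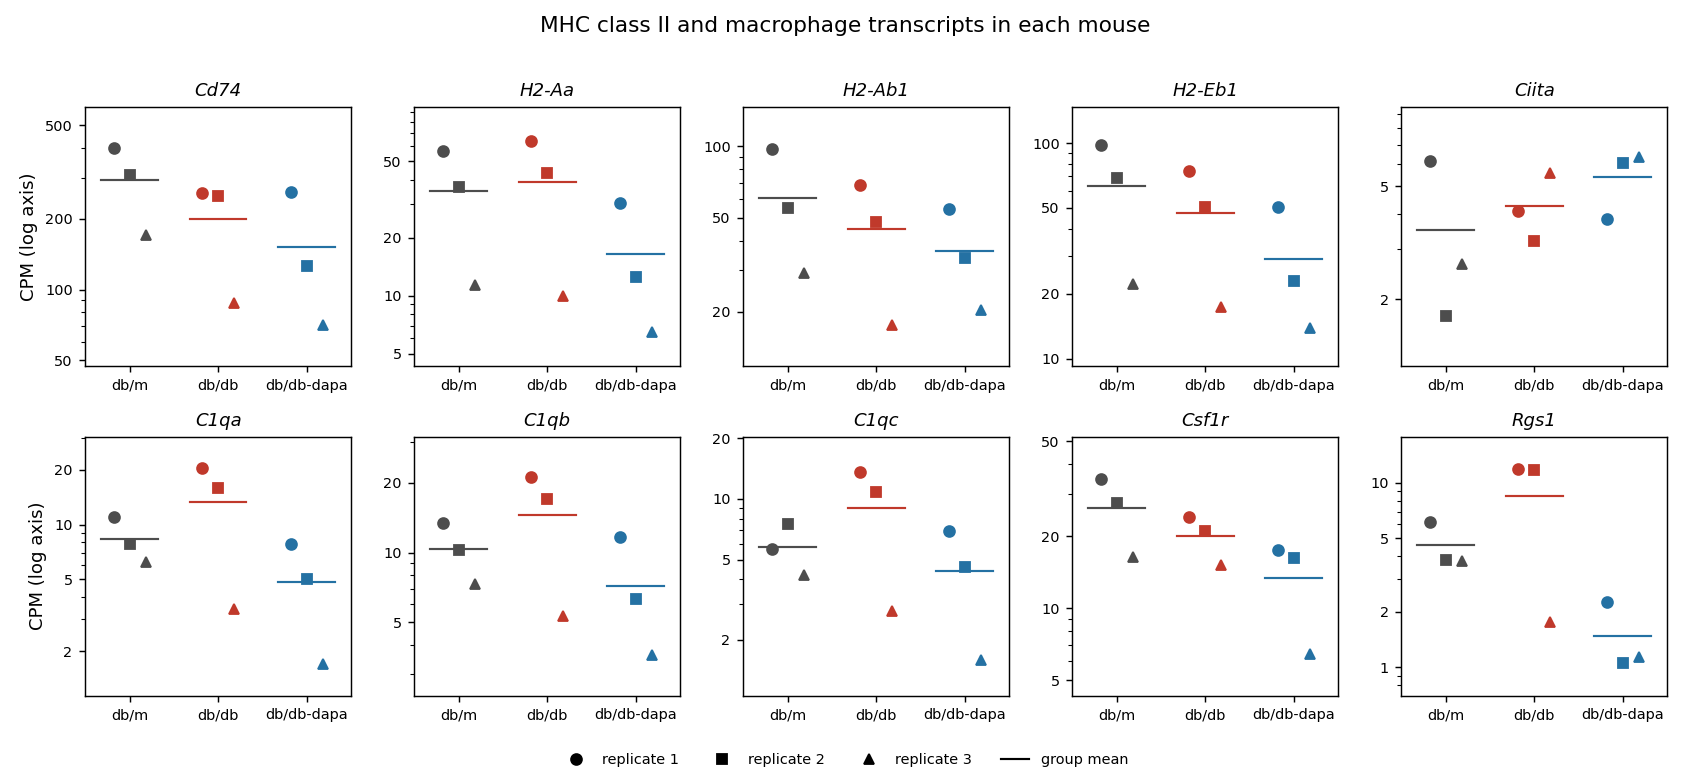
CPM of the 10 genes in each of the 9 mice on a log axis, with a symbol for each mouse and a line at the group mean. Groups overlap for each gene and comparison except Rgs1 for dapagliflozin against *db/m*.

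Cd74, the invariant chain, lies on chromosome 18 of GRCm38 from 60803848 to 60812652 on the plus strand. It was read at 399.6, 308 and 171 CPM in *db/m* mice, at 258, 251 and 87.9 CPM in *db/db* mice and at 259, 126 and 70.6 CPM in *db/db*-dapa mice. Mouse 3 was the lowest of each group and the 3 groups overlapped. Log2 fold changes of the 10 genes are given with a standard error (SE), which for edgeR was derived from the F statistic. Their range with each of the 9 mice left out in turn is given too. For Cd74 the value was -0.56 (SE 0.50, range -0.85 to -0.21) in *db/db* against *db/m* mice, -0.39 (SE 0.50, range -1.0 to -0.03) for dapagliflozin against vehicle and -0.95 (SE 0.50, range -1.57 to -0.59) for dapagliflozin against *db/m*. The edgeR adjusted p values were 0.654, 0.892 and 0.321. Voom with library weights gave -1.42 (SE 0.34, adjusted p = 0.0168) in the last of these, and the replicate block of edgeR -1.05 (SE 0.23, adjusted p = 0.0954), in a range of 0.0168 to 0.671 for the adjusted p over 20 alternatives. In these bulk samples, fewer cells of a type and less RNA per cell cannot be told apart. Mir5107 lies within Cd74 on the same strand, so the division of reads between the pair is uncertain.

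H2-Aa encodes the alpha chain of the class II molecule A and lies on chromosome 17 from 34282744 to 34287823. It was read at 56.7, 36.8 and 11.3 CPM in *db/m* mice, at 63.6, 43.4 and 9.98 CPM in *db/db* mice and at 30.2, 12.5 and 6.45 CPM in *db/db*-dapa mice. Mouse 1 was the highest and mouse 3 the lowest of each group, 4.69-fold to 6.37-fold apart, and the groups overlapped. Its log2 fold change was -1.23 (SE 0.71, range -2.0 to -0.69) for dapagliflozin against vehicle (edgeR adjusted p = 0.854) and -1.11 (SE 0.70, range -1.89 to -0.58) for dapagliflozin against *db/m* (edgeR adjusted p = 0.399). In *db/db* against *db/m* mice it was 0.11 (SE 0.69, range -0.42 to 0.65), and it turned to -0.31 without *db/m* mouse 3 and -0.42 without *db/db* mouse 1.

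H2-Ab1, the beta chain that pairs with H2-Aa, lies on chromosome 17 from 34257689 to 34269419. Its level stood at 97.5, 55.0 and 29.1 CPM in *db/m* mice, at 68.3, 47.8 and 17.7 CPM in *db/db* mice and at 54.5, 33.9 and 20.4 CPM in *db/db*-dapa mice. Here too mouse 1 was highest and mouse 3 lowest in every group, and the groups overlapped. The log2 fold change was -0.47 (SE 0.52, range -0.91 to 0.06) in *db/db* against *db/m* mice and 0.06 without *db/m* mouse 1. For dapagliflozin against vehicle it was -0.28 (SE 0.52, range -0.68 to 0.16), and 0.16 without *db/db* mouse 1 and 0.03 without *db/db*-dapa mouse 3. Treated mice against *db/m* had -0.75 (SE 0.51, range -1.16 to -0.22).

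H2-Eb1, the beta chain of the molecule E, lies on chromosome 17 from 34305867 to 34316674. Its level stood at 98.0, 68.7 and 22.2 CPM in *db/m* mice, at 74.1, 50.6 and 17.4 CPM in *db/db* mice and at 50.5, 22.8 and 13.8 CPM in *db/db*-dapa mice. The order of mice within groups was that of H2-Ab1, and the groups overlapped. The log2 fold change was -0.44 (SE 0.61, range -0.91 to 0.03) in *db/db* against *db/m* mice, or 0.03 without *db/m* mouse 1. It was -0.69 (SE 0.61, range -1.33 to -0.22) for dapagliflozin against vehicle and -1.13 (SE 0.61, range -1.78 to -0.66) for dapagliflozin against *db/m*, with edgeR adjusted p values of 0.855 and 0.332.

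Ciita, the class II co-activator, lies on chromosome 16 from 10480059 to 10528418. It was read at 6.14, 1.74 and 2.67 CPM in *db/m* mice, at 4.08, 3.20 and 5.56 CPM in *db/db* mice and at 3.83, 6.04 and 6.33 CPM in *db/db*-dapa mice, from counts of 10 to 56. Mouse 3, the lowest of its group for Cd74, was the highest for Ciita in both diabetic groups, treated or not. The 3 groups overlapped. The log2 fold change was 0.28 (SE 0.47, range -0.05 to 0.98) in *db/db* against *db/m* mice, and -0.05 without *db/m* mouse 2. It was 0.32 (SE 0.45, range 0.14 to 0.60) for dapagliflozin against vehicle and 0.60 (SE 0.46, range 0.27 to 1.30) for dapagliflozin against *db/m*, with edgeR adjusted p values of 0.902 and 0.479. Dexi overlaps Ciita on the opposite strand at a mean of 12.9 CPM. The study names a stranded library kit. Whether strand was used in counting is not stated, so the origin of some reads is uncertain.

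Over the 9 mice Cd74 and Ciita gave Pearson's r = -0.47 (exact permutation p = 0.198, adjusted 0.218) and Spearman's rho = -0.37 (exact permutation p = 0.336, adjusted 0.370). Benjamini-Hochberg adjustment here was over 11 relations, this and those of the 10 genes with Ptprc. For all 11 the permutations ran over the 9 mice regardless of group, so differences between groups enter these p values. Without *db/m* mouse 2 and *db/db*-dapa mouse 3, the mice farthest from the median of Ciita, r was -0.16. For deviations from group means it was -0.27.

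The other genes of the class II pathway were a list of 17, of which 16 were tested and H2-Eb2 was not. EdgeR called 0 of the 16 in each comparison. At an unadjusted p under 0.05 there were 2 in *db/db* against *db/m*, 0 for dapagliflozin against vehicle and 5 for dapagliflozin against *db/m*, beside 13.7%, 5.19% and 18.2% of all genes. DESeq2 called H2-DMb2 in the last comparison, limma on log2(CPM + 1) called 0 in each, and voom with library weights called 4 in the last, H2-DMa, H2-DMb1, H2-DMb2 and H2-Ob. Of all 15583 genes DESeq2 called 507 there, limma on log2(CPM + 1) 146 and voom 1619. The list's median log2 fold change, with its range over all fits in parentheses, was -0.14 (-0.31 to 0.05), -0.14 (-0.28 to -0.04) and -0.24 (-0.32 to -0.16), beside 0.02, -0.01 and -0.02 for all genes tested. Those fits are the one described above and 20 alternatives (19 for B cell genes, below), 9 of which left out a single mouse. In *db/db* against *db/m* mice the median turned to 0.05 without *db/m* mouse 1 and to 0.05 without *db/db* mouse 3. Its summed level was 1370.0, 1284 and 1045 CPM in *db/m* mice, 1419.8, 1132 and 1185 CPM in *db/db* mice and 1280.5, 1297 and 1198 CPM in *db/db*-dapa mice, most of it from Lgmn.

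H2-DMa and H2-DMb1 encode the factor that exchanges peptides on class II molecules. H2-DMa was read at 24.4, 14.5 and 8.0 CPM in *db/m* mice, at 9.86, 13.6 and 8.21 CPM in *db/db* mice and at 15.3, 8.01 and 7.47 CPM in *db/db*-dapa mice. H2-DMb1 ranged from 2.78 to 19.7 CPM and H2-DMb2 from 2.26 to 13.9 CPM, and since the pair are near-identical, which of them a read came from is uncertain. *db/m* mouse 1 was the highest of the 9 for H2-DMa, as for Cd74. H2-Oa and H2-Ob, which modulate that exchange, had highest levels of 0.444 and 1.36 CPM, and H2-Ob was at 0 in all 3 *db/db*-dapa mice. The ligands Cd80 and Cd86, which co-stimulate T cells, had highest levels of 0.852 and 5.0 CPM.

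Ctss, the cathepsin that trims Cd74, was read at 18, 10.8 and 3.78 CPM in *db/m* mice, at 19.4, 18.6 and 5.56 CPM in *db/db* mice and at 12.8, 8.27 and 3.62 CPM in *db/db*-dapa mice. As for Cd74, mouse 3 was the lowest of each group. Ifi30, the thiol reductase of the endosome, ranged from 36.0 to 92.8 CPM and Lgmn, the endosomal protease legumain, from 760.1 to 1109.8 CPM. Among factors that bind class II promoters, Rfx5 was read at 7.33 to 21.8 CPM, Rfxap at 12.8 to 19.7 CPM and Rfxank at 15.6 to 24.0 CPM. The NF-Y subunits Nfya, Nfyb and Nfyc stood at 19.4 to 47.9, 12.2 to 17.0 and 57.8 to 85.7 CPM. Each of these 6 was found in every library.

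Interferon gamma induces Ciita, and a list of 16 genes of its pathway, all tested, was read beside the 10. Their sum was 505, 472 and 288 CPM in *db/m* mice, 314, 411 and 332 CPM in *db/db* mice and 424, 404 and 360.2 CPM in *db/db*-dapa mice, with Jak1 the most abundant per kb of transcript. EdgeR called 0 in each comparison, with 4, 0 and 5 of 16 at an unadjusted p under 0.05, in the order of comparisons above, beside the 13.7%, 5.19% and 18.2% of all genes. DESeq2 called 2, 0 and 3 of them, limma on log2(CPM + 1) 0 in each and voom with library weights 0, 0 and 7. In the same order of tools, all genes called numbered 363, 13 and 507, 199, 0 and 146, and 262, 449 and 1619. The median log2 fold change, with its range over all fits, was -0.84 (-1.14 to -0.48), 0.02 (-0.34 to 0.30) and -0.80 (-1.22 to -0.46). The second of these turned negative in 8 of 20 alternatives.

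C1qa, C1qb and C1qc encode the 3 chains of complement C1q and lie side by side on chromosome 4 between 136880129 and 136898803. C1qa was read at 11, 7.85 and 6.22 CPM in *db/m* mice, at 20.4, 16.0 and 3.41 CPM in *db/db* mice and at 7.81, 4.99 and 1.70 CPM in *db/db*-dapa mice. *db/db* mice 1 and 2 were the highest of the 9, and *db/db* mouse 3 lay below every *db/m* mouse, so the groups overlapped. C1qb was read at 13.4, 10.3 and 7.33 CPM in *db/m* mice, at 21.1, 17.0 and 5.31 CPM in *db/db* mice and at 11.6, 6.30 and 3.62 CPM in *db/db*-dapa mice. C1qc was read at 5.67, 7.50 and 4.22 CPM in *db/m* mice, at 13.6, 10.8 and 2.78 CPM in *db/db* mice and at 6.96, 4.60 and 1.58 CPM in *db/db*-dapa mice. Both had the same 2 highest mice as C1qa, and their groups overlapped.

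In *db/db* against *db/m* mice the log2 fold change was 0.61 (SE 0.61, range 0.17 to 1.09) for C1qa, 0.44 (SE 0.51, range 0.08 to 0.85) for C1qb and 0.59 (SE 0.59, range 0.19 to 1.05) for C1qc. These were 1.09, 0.85 and 1.05 without *db/db* mouse 3, and 0.17, 0.08 and 0.19 without *db/db* mouse 1. For dapagliflozin against vehicle C1qa had -1.43 (SE 0.62, range -1.94 to -0.99), with an unadjusted p of 0.0426 and an adjusted p of 0.854 in edgeR, while C1qb had -0.98 (SE 0.51, range -1.49 to -0.62) and C1qc -1.01 (SE 0.60, range -1.49 to -0.58). Without *db/db* mouse 3 the value for C1qa in edgeR was -1.90 (SE 0.48, adjusted p = 0.0938), which passed the threshold, and over 20 alternatives its adjusted p ranged from 0.0938 to 1.0. For dapagliflozin against *db/m* the log2 fold changes of C1qa, C1qb and C1qc were -0.81 (SE 0.62, range -1.33 to -0.38), -0.54 (SE 0.51, range -1.06 to -0.20) and -0.42 (SE 0.60, range -0.92 to -0.004).

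Csf1r, the receptor for colony stimulating factor 1 on macrophages, lies on chromosome 18 from 61100598 to 61132149. Its level stood at 34.8, 27.6 and 16.4 CPM in *db/m* mice, at 24.1, 21.0 and 15.2 CPM in *db/db* mice and at 17.5, 16.3 and 6.45 CPM in *db/db*-dapa mice. Mouse 1 was highest and mouse 3 lowest in each group, and the groups overlapped. The log2 fold change was -0.41 (SE 0.37, range -0.66 to -0.15) in *db/db* against *db/m* mice, -0.58 (SE 0.38, range -0.80 to -0.22) for dapagliflozin against vehicle and -0.98 (SE 0.37, range -1.23 to -0.63) for dapagliflozin against *db/m*. The last had an unadjusted p of 0.0220 and an adjusted p of 0.224 in edgeR. Hmgxb3 overlaps Csf1r on the opposite strand at a mean of 33.6 CPM, and Mir6983 lies within it at 0, so the origin of some reads is uncertain.

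Rgs1, a regulator of G-protein signalling in leukocytes, lies on chromosome 1 from 144242296 to 144249242. It was read at 6.14, 3.84 and 3.78 CPM in *db/m* mice, at 11.9, 11.8 and 1.77 CPM in *db/db* mice and at 2.27, 1.05 and 1.13 CPM in *db/db*-dapa mice, from counts of 8 to 59. All 3 treated mice lay below all 3 *db/m* mice, while *db/db* mouse 3 lay within the range of the treated mice. For dapagliflozin against vehicle the log2 fold change was -2.47 (SE 0.65, range -2.98 to -2.10), with an unadjusted p of 0.00268 and an adjusted p of 0.854 in edgeR. DESeq2 gave -2.51 (SE 0.67, adjusted p = 0.0990) and voom with library weights -2.77 (SE 0.57, adjusted p = 0.0855), both past the threshold. Without *db/db* mouse 3 edgeR gave -2.98 (SE 0.42, adjusted p = 0.0606), and over 20 alternatives the adjusted p ranged from 0.0606 to 1.0.

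Set against *db/m*, treated mice had a log2 fold change of Rgs1 of -1.64 (SE 0.65, range -2.05 to -1.36), with an edgeR adjusted p of 0.236 and an exact permutation p of 0.1. Without *db/db* mouse 3, which belongs to neither group compared here, edgeR gave -1.63 (SE 0.40, adjusted p = 0.0454). With only the 2 groups compared it gave -1.63 (SE 0.45, adjusted p = 0.0752). Its adjusted p ranged from 0.0268 to 0.566 over 20 alternatives. In *db/db* against *db/m* mice Rgs1 had 0.83 (SE 0.60, range 0.47 to 1.35), with an edgeR adjusted p of 0.578.

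Of the 10 genes, 6 had a positive and 4 a negative log2 fold change in *db/db* against *db/m* mice, with a median of 0.20, beside 0.02 for all genes. That median ranged from -0.17 to 0.61 over all fits, and turned negative without *db/db* mouse 1 (-0.17) and without *db/m* mouse 3 (-0.09). For dapagliflozin against vehicle 9 were negative, with Ciita the exception, and the median was -0.83, beside -0.01 for all genes. The median of the 10 was -1.24 without *db/db* mouse 3, -1.41 without *db/db*-dapa mouse 1 and -0.46 without *db/db*-dapa mouse 3. For dapagliflozin against *db/m* 9 were again negative, with a median of -0.88, beside -0.02 for all genes. In each of these 2 comparisons 8 of the 10 genes, not the same 8, had their lowest value without *db/db*-dapa mouse 1. The last median was -0.57 without *db/m* mouse 1, -1.27 without *db/db*-dapa mouse 1 and -0.52 without *db/db*-dapa mouse 3.

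Levels of different genes were compared as CPM per kb of transcript, averaged over the 9 mice. Cd74 had the highest level, 152 CPM per kb, at percentile 96.4 of the genes tested. H2-Ab1 followed with 38.9, H2-Eb1 with 27.8 and H2-Aa with 26.7 CPM per kb. The C1q chains C1qb, C1qa and C1qc had 9.80, 8.48 and 5.33 CPM per kb. Csf1r had 4.24, Rgs1 1.26 and Ciita 0.732 CPM per kb, the last at percentile 22.3. Some of these orders differed in the means of single groups. H2-Aa was above H2-Eb1 in *db/db* mice, at 34.6 against 28.4 CPM per kb. Csf1r was above C1qc in *db/m* mice (5.59 against 4.82), and Ciita above Rgs1 in *db/db*-dapa mice (0.899 against 0.386). The SD of log2(CPM + 1) within groups stood at percentile 95.8 or above of all genes for 8 of the 10, at 88.3 for Csf1r and at 82.6 for Ciita.

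The 10 genes, other than Ciita, were positively correlated in each pair over the mice. Pearson's r over the 9 mice was 0.919 to 0.976 for the 6 pairs among Cd74, H2-Aa, H2-Ab1 and H2-Eb1. It was 0.960 to 0.988 for the 3 pairs of C1q chains, and 0.763 to 0.956 for the 12 pairs of a class II with a C1q gene. Csf1r had 0.828 to 0.895 with class II and 0.736 to 0.794 with C1q genes, Rgs1 had 0.660 to 0.824 and 0.824 to 0.911, and the pair Csf1r and Rgs1 had 0.650, the lowest of these. Ciita had -0.495 to -0.223 with the other 9. These r values are a description, and the points of a pair share library and depth.

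Ratios between the genes were formed in each mouse from CPM per kb and were not tested. The ratio of Cd74 to C1qb stood at 23.0, 23.1 and 18 in *db/m* mice, at 9.46, 11.4 and 12.8 in *db/db* mice and at 17.2, 15.4 and 15.0 in *db/db*-dapa mice. No 2 groups overlapped, and *db/db* mouse 3, in which both genes were low, lay near the other *db/db* mice. The mean of Cd74, H2-Aa, H2-Ab1 and H2-Eb1 over that of the C1q chains stood at 12.8, 10.9 and 7.80 in *db/m* mice, at 5.08, 5.37 and 6.90 in *db/db* mice and at 8.94, 7.39 and 9.66 in *db/db*-dapa mice. *db/db* mice lay below both other groups, which overlapped. The ratio of C1qa to C1qb stood at 0.862, 0.798 and 0.888 in *db/m* mice, at 1.01, 0.985 and 0.673 in *db/db* mice and at 0.702, 0.828 and 0.490 in *db/db*-dapa mice, and all groups overlapped. Of 15 ratios, groups did not overlap for 6 in *db/db* against *db/m*, 7 for dapagliflozin against vehicle and 5 for dapagliflozin against *db/m*. Many of the 15 share a gene, so they are not separate observations. Ratios of other genes were not compared, so how often groups separate for any ratio is not known.

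**Figure D2:**
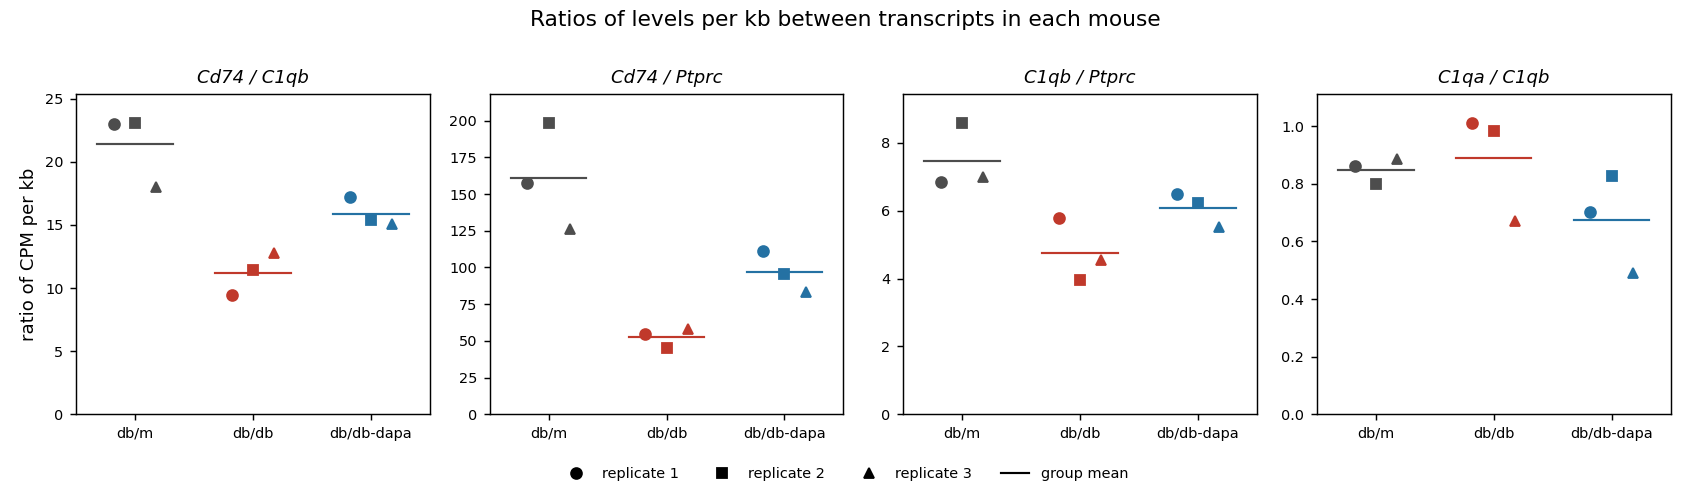
Ratios of CPM per kb in each mouse on linear axes from 0, with a symbol for each mouse and a line at the group mean. Cd74 to Ptprc was 126 to 199 in *db/m*, 45.2 to 58.2 in *db/db* and 83.2 to 111 in *db/db*-dapa mice.

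Ptprc, the CD45 antigen of leukocytes, was read at 9.13, 5.58 and 4.89 CPM in *db/m* mice, at 17.0, 20.0 and 5.43 CPM in *db/db* mice and at 8.38, 4.73 and 3.05 CPM in *db/db*-dapa mice. *db/db* mice 1 and 2 were the highest of the 9, as for the C1q chains. Over the 9 mice C1qb and Ptprc gave Pearson's r = 0.92 (exact permutation p = 0.000330, adjusted 0.00286) and Spearman's rho = 0.93 (exact permutation p = 0.000750, adjusted 0.00721). Without *db/db* mice 1 and 2, the farthest from the median of Ptprc, r was 0.91. Rgs1 and Ptprc gave Pearson's r = 0.90 (exact permutation p = 0.00165, adjusted 0.00559) and Spearman's rho = 0.88 (exact permutation p = 0.00308, adjusted 0.0113), with r = 0.66 without those mice. H2-Aa and Ptprc gave Pearson's r = 0.83 (exact permutation p = 0.00476, adjusted 0.0105) and Spearman's rho = 0.87 (exact permutation p = 0.00451, adjusted 0.0124), with r = 0.86 without them.

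Cd74 and Ptprc gave Pearson's r = 0.64 (exact permutation p = 0.0639, adjusted 0.0902) and Spearman's rho = 0.67 (exact permutation p = 0.0589, adjusted 0.0720). Without *db/db* mice 1 and 2 r was 0.82, and for deviations from group means it was 0.94. Ciita and Ptprc gave Pearson's r = -0.21 (exact permutation p = 0.592, adjusted 0.592) and Spearman's rho = -0.33 (exact permutation p = 0.385, adjusted 0.385), with r = -0.09 without those mice. For the other relations with Ptprc, C1qa gave Pearson's r = 0.92 (exact permutation p = 0.000520, adjusted 0.00286) and Spearman's rho = 0.92 (exact permutation p = 0.00131, adjusted 0.00721), and C1qc gave Pearson's r = 0.88 (exact permutation p = 0.00203, adjusted 0.00559) and Spearman's rho = 0.85 (exact permutation p = 0.00607, adjusted 0.0134). H2-Ab1 gave Pearson's r = 0.64 (exact permutation p = 0.0656, adjusted 0.0902) and Spearman's rho = 0.68 (exact permutation p = 0.0503, adjusted 0.0692), and H2-Eb1 gave Pearson's r = 0.69 (exact permutation p = 0.0401, adjusted 0.0735) and Spearman's rho = 0.78 (exact permutation p = 0.0172, adjusted 0.0316). Csf1r had the lowest r of the 9 genes other than Ciita, with Pearson's r = 0.59 (exact permutation p = 0.0919, adjusted 0.112) and Spearman's rho = 0.75 (exact permutation p = 0.0255, adjusted 0.0401). Without *db/db* mice 1 and 2 these 5 had r = 0.87, 0.75, 0.80, 0.83 and 0.81. For deviations from group means, r with Ptprc was 0.91, 0.91 and 0.87 for H2-Aa, H2-Ab1 and H2-Eb1. It was 0.96, 0.97 and 0.88 for C1qa, C1qb and C1qc, 0.74 for Csf1r, 0.93 for Rgs1 and -0.22 for Ciita. The labels name no batch.

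Per kb, the ratio of Cd74 to Ptprc stood at 157, 199 and 126 in *db/m* mice, at 54.7, 45.2 and 58.2 in *db/db* mice and at 111, 95.8 and 83.2 in *db/db*-dapa mice. No 2 groups overlapped. The ratio of C1qb to Ptprc stood at 6.83, 8.60 and 7.00 in *db/m* mice, at 5.78, 3.96 and 4.56 in *db/db* mice and at 6.48, 6.22 and 5.53 in *db/db*-dapa mice. *db/m* mice lay above both other groups, which overlapped each other. These ratios were not tested either, and have no share over ratios of other genes beside them.

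Macrophage markers were a list of 18, of which 17 were tested and 14 had counts in every mouse. They summed to 85.5, 61.4 and 35.1 CPM in *db/m* mice, to 116, 106 and 42.7 CPM in *db/db* mice and to 76.5, 44.8 and 33.5 CPM in *db/db*-dapa mice. Mouse 3 was the lowest of each group, as for Cd74 and C1qb. Lyz2, lysozyme, was the most abundant per kb, at 20.3, 9.42 and 6.44 CPM in *db/m* mice, at 27.2, 19.6 and 6.57 CPM in *db/db* mice and at 18.5, 10.8 and 7.24 CPM in *db/db*-dapa mice. Mpeg1 ranged from 4.0 to 16.3, Cd14 from 2.67 to 23.6, Cd68 from 2.98 to 11.7, Fcer1g from 0.679 to 12.9 and Tyrobp from 1.01 to 9.86 CPM. Adgre1, the F4/80 antigen, ranged from 0.339 to 3.55 CPM and Cx3cr1, the fractalkine receptor, from 0.339 to 4.08 CPM. Fcgr1, Fcgr3, Mrc1, Aif1, Itgam, Ms4a7, Spi1 and Clec7a were at or under 6.67 CPM in each mouse. Trem2 was at 0 in all 3 *db/db* mice, and Cd163, which was not tested, was at 0 in all 3 *db/m* mice.

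For macrophage genes the median log2 fold change (range over all fits) was 0.50 (0.08 to 0.93) in *db/db* against *db/m* mice, with 13 of 17 positive. For dapagliflozin against vehicle the median was -0.56 (-1.24 to -0.37), with 14 negative. It was -1.03 without *db/db* mouse 3 and -1.24 without *db/db*-dapa mouse 1. For dapagliflozin against *db/m* it was -0.35 (-0.77 to 0.03), with 14 negative, and turned to 0.03 without *db/db*-dapa mouse 3. In the same order of comparisons, 2, 2 and 0 of the 17 had an unadjusted p under 0.05, beside 13.7%, 5.19% and 18.2% of all genes. DESeq2 and limma on log2(CPM + 1) called 0 in each. Voom with library weights called 0, 2 and 3, among 262, 449 and 1619 of all genes. The 2 were Cx3cr1 and Itgam, and the 3 were Fcer1g, Trem2 and Tyrobp. The part of macrophages in the values of the 10 genes was not tested.

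Pan-leukocyte markers, 10 of 10 tested and present in every mouse, summed to 84.6, 70.8 and 52.7 CPM in *db/m* mice, to 141, 122 and 37.9 CPM in *db/db* mice and to 70.1, 42.9 and 32.4 CPM in *db/db*-dapa mice. Cd52 was the most abundant per kb, at 0.566 to 13.6 CPM. Their median log2 fold change (range over all fits) was 0.77 (0.12 to 1.29) in *db/db* against *db/m* mice, -1.23 (-1.76 to -0.76) for dapagliflozin against vehicle and -0.54 (-1.07 to -0.24) for dapagliflozin against *db/m*, with 8 of 10 positive in the first and 10 of 10 negative in both of the others. The middle value was -1.71 without *db/db* mouse 3 and -1.76 without *db/db*-dapa mouse 1. Without *db/db* mouse 3 edgeR called Cd52, Coro1a, Hmha1 and Ptprc there, among 272 of all 15583 genes. Hmha1 was named after these calls were seen. In the same order of comparisons, 0, 4 and 0 markers had an unadjusted p under 0.05, beside 13.7%, 5.19% and 18.2% of all genes. DESeq2 and limma on log2(CPM + 1) called 0 in each. Voom with library weights called 0, 5 and 3 markers, among 262, 449 and 1619 of all genes. The 5 were Cd52, Coro1a, Cytip, Hmha1 and Ptprc, and the 3 were Cd52, Coro1a and Cytip. The part of these markers in the result for the 10 genes was not tested.

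Over all 15 lists 132 genes were tested, and edgeR called 0 in each comparison. At an unadjusted p under 0.05 there were 16 in *db/db* against *db/m*, 8 for dapagliflozin against vehicle and 20 for dapagliflozin against *db/m*, again beside 13.7%, 5.19% and 18.2% of all genes. In that order DESeq2 called 6, 0 and 7, limma on log2(CPM + 1) 1, 0 and 0, and voom with library weights 1, 17 and 36. Without *db/db* mouse 3 edgeR called 1, 7 and 10, and without *db/db*-dapa mouse 1 it called 0, 0 and 1. Of all 15583 genes DESeq2 called 363, 13 and 507, limma on log2(CPM + 1) 199, 0 and 146, and voom with library weights 262, 449 and 1619. EdgeR called 230, 272 and 664 of them without the first of those mice and 195, 0 and 264 without the second.

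Markers of other leukocytes were summed too. Dendritic cell genes, 7 of 8 tested, summed to 6.30, 8.72 and 6.22 CPM in *db/m* mice, to 18, 10 and 4.04 CPM in *db/db* mice and to 6.53, 2.49 and 2.15 CPM in *db/db*-dapa mice, with Batf3 the most abundant per kb and Xcr1 at 0 in 3 mice. B cell genes, 5 of 7 tested, summed to 2.36, 1.57 and 1.56 CPM in *db/m* mice, to 2.04, 2.2 and 0.126 CPM in *db/db* mice and to 0.994, 0.525 and 0.226 CPM in *db/db*-dapa mice, with Cd79a the most abundant per kb and Ms4a1 and Pax5 at 0 in all *db/db*-dapa mice. *db/db* mouse 3 had the lowest B cell sum of the 9, and *db/db* mouse 1 the highest dendritic cell sum. T and NK cell genes, 9 of 10 tested, summed to 5.35, 3.32 and 3.11 CPM in *db/m* mice, to 3.74, 10.8 and 1.14 CPM in *db/db* mice and to 3.97, 1.18 and 1.13 CPM in *db/db*-dapa mice, with Lck the most abundant per kb and Ncr1 at 0 in all mice but *db/m* mouse 2. Neutrophil genes, 5 of 6 tested, summed to 34.8, 9.25 and 10.2 CPM in *db/m* mice, to 13.3, 68.4 and 3.79 CPM in *db/db* mice and to 16.6, 6.83 and 7.35 CPM in *db/db*-dapa mice, with S100a9 the most abundant per kb and at 0 in *db/db* mouse 3. *db/db* mouse 2 was the highest for both.

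For dendritic cell genes the median log2 fold change (range over all fits) was 0.42 (0.08 to 0.75), -1.40 (-1.66 to -0.48) and -0.91 (-1.1 to -0.38), in the order of comparisons above. It was -1.25 (-1.98 to -0.24), -1.34 (-1.91 to -0.15) and -1.65 (-2.46 to -0.26) for B cell genes and 0.16 (-1.1 to 0.92), -1.2 (-2.30 to 0.29) and -0.99 (-1.91 to -0.19) for T and NK cell genes, many of them near 0 counts. Xcr1, Pax5, Ncr1 and Cd163 were named after their values were seen. Neutrophil genes had 0.84 (-1.26 to 2.26), -2.02 (-2.64 to 0.28) and -0.56 (-1.72 to 0.17). Leaving out *db/db* mouse 2, the first 2 medians turned to -1.26 and 0.28 for neutrophil and to -1.1 and 0.29 for T and NK cell genes. Without *db/m* mouse 1 the last median of neutrophil genes turned to 0.17. The part of these cells in the class II values was not tested.

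**Figure D3:**
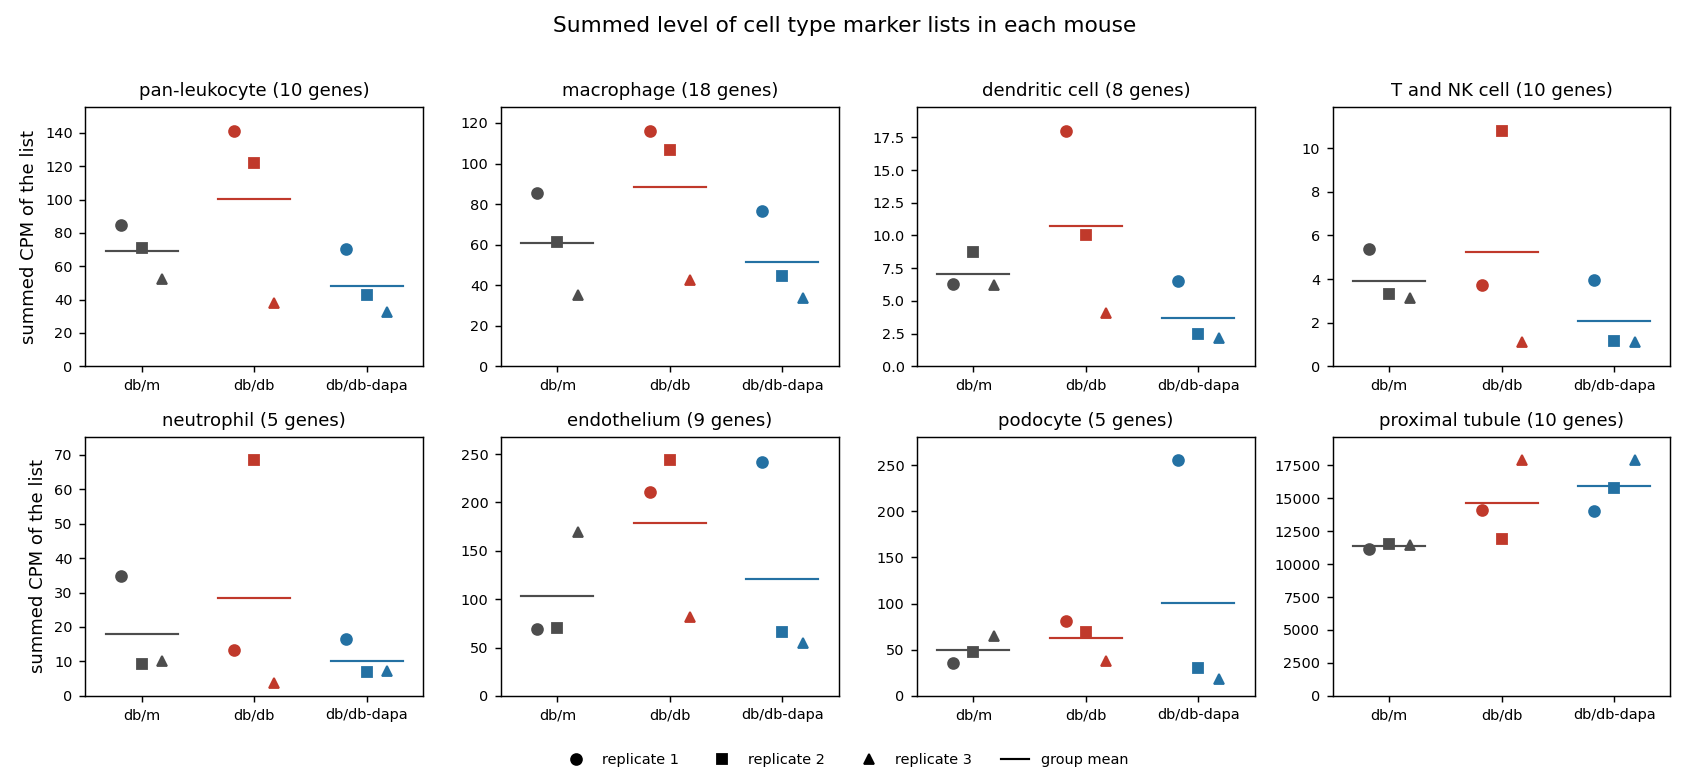
Summed CPM of 8 marker lists in each mouse on linear axes from 0, with a symbol for each mouse and a line at the group mean. Pan-leukocyte and macrophage sums are highest in *db/db* mice 1 and 2, and the podocyte sum is highest in *db/db*-dapa mouse 1 at 255 CPM.

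Endothelial genes, 9 of 9 tested, summed to 69.5, 70.3 and 169 CPM in *db/m* mice, to 211, 244 and 81.9 CPM in *db/db* mice and to 242, 66.0 and 54.2 CPM in *db/db*-dapa mice, with Plvap the most abundant per kb. *db/m* mouse 3 was the highest of its group for endothelium and the lowest for Cd74. Podocyte genes, 5 of 5 tested, summed to 35.6, 47.5 and 64.4 CPM in *db/m* mice, to 80.9, 68.8 and 37.4 CPM in *db/db* mice and to 255, 29.9 and 18 CPM in *db/db*-dapa mice, with Podxl the most abundant per kb. Fibroblast and pericyte genes, 6 of 7 tested, summed to 7.24, 5.23 and 6.89 CPM in *db/m* mice, to 6.80, 6.80 and 3.16 CPM in *db/db* mice and to 15.8, 2.89 and 1.70 CPM in *db/db*-dapa mice, with Pdgfrb the most abundant per kb. *db/db*-dapa mouse 1, the highest treated mouse for Cd74, was the highest of the 9 for both of these lists. Erythroid genes, 5 of 5 tested, summed to 340.3, 147 and 421 CPM in *db/m* mice, to 120.0, 1462 and 97.9 CPM in *db/db* mice and to 297, 50.3 and 29.6 CPM in *db/db*-dapa mice, with Hba-a2 the most abundant per kb. Hba-a1 and Hba-a2 are listed with the same counts in every mouse, so the sum holds the same values for both and only transcript length sets their order per kb. Distal nephron genes, 7 of 7 tested, summed to 1392, 1090.0 and 2623 CPM in *db/m* mice, to 1803, 872 and 932 CPM in *db/db* mice and to 948, 787 and 885 CPM in *db/db*-dapa mice, with Umod the most abundant per kb. *db/db* mouse 2 was highest for the former and *db/m* mouse 3 for the latter, and neither was the highest of the 9 for Cd74. Tubular injury genes, 5 of 5 tested, summed to 36.5, 54.4 and 9.78 CPM in *db/m* mice, to 27.2, 5.80 and 10.7 CPM in *db/db* mice and to 18.2, 22.3 and 10.1 CPM in *db/db*-dapa mice, with Vcam1 the most abundant per kb.

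In the order of comparisons above, the endothelial median log2 fold change (range over all fits) was 0.67 (0.38 to 1.26), -0.50 (-1.39 to -0.03) and 0.18 (-0.75 to 0.68), the last -0.75 without *db/db*-dapa mouse 1. The podocyte median was 0.38 (-0.21 to 0.87), 0.78 (-1.08 to 1.33) and 0.78 (-1.09 to 1.33), the last 2 turning to -1.08 and -1.09 without that mouse. The first turned to -0.21 without *db/db* mouse 2. Medians were -0.17 (-0.57 to 0.16), 0.26 (-1.29 to 0.70) and -0.03 (-1.37 to 0.41) for fibroblast and pericyte genes and 0.94 (-1.47 to 1.45), -1.95 (-3.63 to 0.36) and -1.22 (-2.90 to -0.72) for erythroid genes. The second fibroblast and pericyte median turned to -1.29 without *db/db*-dapa mouse 1, the first to 0.16 without *db/db* mouse 3, and the last to 0.41 and 0.41 without *db/db*-dapa mouse 2 and 3. The first 2 erythroid medians turned to -1.47 and 0.36 without *db/db* mouse 2. Medians were -0.26 (-0.60 to 0.39), -0.49 (-0.67 to -0.27) and -0.55 (-0.84 to -0.10) for distal nephron, 0.48 (0.08 to 0.60), 0.23 (0.01 to 0.87) and 0.46 (0.41 to 0.53) for proximal tubular and -1.08 (-1.60 to -0.49), 0.97 (0.49 to 1.75) and -0.92 (-1.39 to -0.57) for tubular injury genes. With all 9 mice, medians also turned in other fits. The second podocyte median was -0.72 with voom, and the last was -0.05 with limma on log2(CPM + 1), -0.40 with voom and under 0 with the block. The second fibroblast and pericyte median was -0.12 with no filter, -0.08 with limma, -1.1 with voom and -0.14 with the block, and the last was 0.03 with total count scaling. The last endothelial median was -0.01, -0.01 and -0.05 with limma, voom and the block. The first erythroid median was -0.04 with limma, and the first distal nephron median 0.12 with voom. The first distal nephron median turned to 0.39 without *db/m* mouse 3, and the last went to -0.10. Their part in the result for the 10 genes was not tested.

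The genes with the highest and the lowest log2 fold change of a list follow in that order, for 13 of the 15 lists in the first comparison and 14 in the second, with the value in parentheses. In *db/db* against *db/m* mice these were Rfx5 (0.39, SE 0.28) and H2-Oa for the class II pathway, Ifngr1 (0.19, SE 0.27) and Cxcl9 (-2.56, SE 1.2) for the interferon gamma response, and Itgam (1.36, SE 0.54) and Trem2 for macrophages. Next came Ptprc (1.08, SE 0.50) and Lcp1 (-0.06, SE 0.23) for pan-leukocyte markers, and Itgax (1.18, SE 0.78) and Cd209a (-2.01, SE 1.13) for dendritic cells. They were Cd4 (1.61, SE 1.06) and Cd8a (-1.04, SE 1.17) for T and NK cells, Retnlg (1.55, SE 1.51) and Cxcr2 (-0.42, SE 0.37) for neutrophils, and Plvap (1.24, SE 0.75) and Ehd3 (0.43, SE 0.73) for endothelium. Further pairs were Col3a1 (1.01, SE 1.37) and Col1a1 (-2.62, SE 1.58) for fibroblasts and pericytes, and Calb1 (0.56, SE 0.32) and Umod (-1.2, SE 0.42) for the distal nephron. The last pairs were Alas2 (1.01, SE 1.0) and Hbb-bs (0.73, SE 0.99) for erythroid cells, Slc5a12 (0.79, SE 0.28) and Slc7a13 (-3.27, SE 0.83) for the proximal tubule, and Vcam1 (-0.44, SE 0.62) and Krt20 (-3.55, SE 1.09) for tubular injury. None of these genes passed the threshold, and their lowest edgeR adjusted p was 0.108, for Slc7a13. Slc7a13 was called with upper quartile scaling, no filter, DESeq2, limma on log2(CPM + 1), voom with library weights and the replicate block, and without *db/db* mouse 3. DESeq2 also called Umod and Krt20, and edgeR called Umod without *db/db* mouse 1. No value is given for H2-Oa and Trem2, with 3 counts or fewer in each library of both groups. Some values given rest on few counts too. Col1a1 had 4, 5 and 0 counts in *db/m* and 1, 0 and 0 in *db/db* mice. Retnlg had 10, 0 and 0 counts in *db/m* and 0, 25 and 0 in *db/db* mice.

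The pairs for dapagliflozin against vehicle were Cd80 (2.42, SE 1.39) and H2-Ob for the class II pathway, Gbp2 (0.84, SE 0.54) and Psmb8 (-0.90, SE 0.55) for the interferon gamma response, and Trem2 and Cx3cr1 (-1.61, SE 0.59) for macrophages. Next came Lcp1 (-0.22, SE 0.23) and Cd52 (-2.2, SE 0.81) for pan-leukocyte markers, Cd209a (0.65, SE 1.19) and Itgax (-1.96, SE 0.80) for dendritic cells, and Cd79b and Ms4a1 for B cells. They were Cd8a (0.19, SE 1.16) and Cd4 (-2.05, SE 1.05) for T and NK cells, Cxcr2 (-0.11, SE 0.37) and Retnlg (-2.10, SE 1.52) for neutrophils, and Kdr (-0.02, SE 0.54) and Plvap (-1.46, SE 0.75) for endothelium. Further pairs were Col1a1 (1.89, SE 1.62) and Dcn (-1.18, SE 0.79) for fibroblasts and pericytes, and Slc12a3 (-0.24, SE 0.35) and Aqp2 (-1.01, SE 0.50) for the distal nephron. The last pairs were Alas2 (-1.50, SE 1.0) and Hba-a1 (-2.28, SE 1.06) for erythroid cells, Slc7a13 (1.02, SE 0.78) and Slc5a12 (-0.29, SE 0.28) for the proximal tubule, and Krt20 (2.63, SE 1.11) and Vcam1 (-0.67, SE 0.63) for tubular injury. None passed the threshold, with edgeR adjusted p values of 0.854 or more. Voom with library weights called Cx3cr1, Cd52, Itgax, Cd4, Plvap, Aqp2 and Hba-a1, and edgeR without *db/db* mouse 3 called Cd52 and Slc7a13. Hba-a1 is tied with Hba-a2, which has the same counts. No value is given for Trem2, Cd79b and Ms4a1, with 3 counts or fewer in each library of both groups, or for H2-Ob, at 0 in all treated mice. Some values given rest on few counts in vehicle mice, which were 0, 1 and 0 for Cd80, 1, 0 and 0 for Col1a1 and 0, 25 and 0 for Retnlg.

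Among 10508 other genes with a mean of at least 5 CPM, the 10 whose course over the 9 mice was most like the mean course of the 10 genes were Helz2, Rfxap, Ctss, Mir5107, Dusp12, Gtf2f1, Pgm1, Coro1a, H2-Q4 and Ythdc1, with Pearson's r from 0.95 to 0.93. Mir5107 lies within Cd74. Helz2 was read at 16.7, 13.1 and 7.78 CPM in *db/m* mice, at 19.7, 22.6 and 6.32 CPM in *db/db* mice and at 12.2, 8.67 and 6.11 CPM in *db/db*-dapa mice. As for Cd74, mouse 3 was the lowest of each group. Of the 10 genes themselves, H2-Aa was closest to their mean course (r = 0.988) and Ciita farthest (r = -0.294).

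Promoter windows from RefSeq (build GRCm38.p6) around gene starts matched 4 of the 10 genes, H2-Aa, H2-Eb1, C1qb and C1qc. Entries were missing for Cd74, H2-Ab1, Ciita, C1qa, Csf1r and Rgs1. The windows of H2-Aa and H2-Eb1, genes whose levels were correlated over the 9 mice, are shown with that of H2-DMb1 from the class II pathway list, chosen after the windows had been searched. Letters searched on both strands were TGATTGG, the shorter ATTGG that lies within it, GATGATGC and TGACGTCA. Capitals mark TGATTGG, GATGATGC and TGACGTCA. Of 32851 windows of the same length, 37.4% held ATTGG, 7.82% TGATTGG, 0.703% GATGATGC and 1.79% TGACGTCA.
H2-Aa chr17:34287774-34288073 minus strand: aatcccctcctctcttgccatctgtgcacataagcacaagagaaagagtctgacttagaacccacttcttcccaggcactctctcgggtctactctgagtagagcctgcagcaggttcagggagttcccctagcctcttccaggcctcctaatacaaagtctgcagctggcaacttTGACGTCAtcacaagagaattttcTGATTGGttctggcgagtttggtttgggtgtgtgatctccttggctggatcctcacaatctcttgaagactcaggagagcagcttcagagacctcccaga
H2-Eb1 chr17:34305617-34305916 plus strand: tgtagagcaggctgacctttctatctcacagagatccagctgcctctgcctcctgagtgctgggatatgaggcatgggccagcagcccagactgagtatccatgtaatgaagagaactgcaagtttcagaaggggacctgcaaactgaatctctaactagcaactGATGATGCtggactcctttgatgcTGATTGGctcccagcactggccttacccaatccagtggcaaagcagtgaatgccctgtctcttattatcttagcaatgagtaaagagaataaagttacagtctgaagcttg
H2-DMb1 chr17:34152941-34153240 plus strand: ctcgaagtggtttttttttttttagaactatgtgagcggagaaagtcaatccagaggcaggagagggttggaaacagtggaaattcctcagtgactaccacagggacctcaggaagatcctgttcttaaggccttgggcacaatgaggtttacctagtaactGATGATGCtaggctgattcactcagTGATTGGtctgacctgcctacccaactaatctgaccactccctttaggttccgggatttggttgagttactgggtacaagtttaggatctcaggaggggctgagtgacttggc
All 3 windows shown held TGATTGG, H2-Eb1 and H2-DMb1 also held GATGATGC, and H2-Aa held TGACGTCA. Of further genes in that list, H2-DMb2, H2-Oa and H2-Ob held TGATTGG, H2-DMb2 with GATGATGC too, and neither of 2 windows of H2-DMa held TGATTGG, GATGATGC or TGACGTCA. The windows of C1qb and C1qc held none of these letters. A match describes the sequence alone.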

How the data were processed

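Poly(A) RNA of 9 mice in 3 groups of 3 had been sequenced, and the authors mapped reads to mm10 with TopHat2 2.0.13, Bowtie2 2.2.3 and SAMtools 0.1.19. Cufflinks 2.2.1 is named for FPKM, but the deposited values are estimated counts (85.9% of nonzero values are whole), which were rounded. Libraries were made with a stranded kit, but neither the making of the deposited values nor the use of strand in counting is described. Libraries held 2733314 to 9033062 counts. Genes at 0.3 CPM or more in at least 2 of 9 libraries were tested with edgeR 4.0.16 in R 4.3.3 (TMM scaling, quasi-likelihood F test, group only, all 9 mice). A gene was called at a Benjamini-Hochberg adjusted p under 0.1 over all genes tested and an absolute log2 fold change over 1. CPM use TMM-scaled libraries, and logs a pseudocount of 1. Two-sided exact permutation p values of correlations were computed with numpy 2.4.6 over all orders of the 9 mice, regardless of group. Permutation tests of 3 mice against 3 used scipy 1.17.1. Gene positions and transcript lengths came from the GRCm38 annotation, with 23350 symbols matched directly, 649 by an older symbol and 422 not.

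The genes and the lists were chosen with earlier results of these data known. The 15 lists were class II pathway, interferon gamma response, macrophage, pan-leukocyte, dendritic cell, B cell, T and NK cell, neutrophil, endothelium, fibroblast and pericyte, podocyte, distal nephron, erythroid, proximal tubule and tubular injury. Named genes were the 10, all tested class II pathway and macrophage genes, the most abundant gene of each list, those with its highest and lowest log2 fold changes in *db/db* against *db/m* and *db/db*-dapa against *db/db* mice, every gene called, and the 10 genes most like the mean course of the 10. Some genes that the rule names are not reported here. The table lacks Ighm and Ly6g, and lists Arhgap45 as Hmha1. Alternatives were RLE, upper quartile and total count scaling, no filter, a filter at 1 CPM in 3 libraries, the newer quasi-likelihood form, DESeq2 1.42.0, limma 3.58.1 on log2(CPM + 1), voom with library weights, only the 2 groups compared, a replicate block, and leaving out each mouse. The test was also run for dapagliflozin against vehicle on data simulated without group effects other than in 200 genes above 5 CPM. It called 190 of the 200 when changed 4-fold in *db/db*-dapa mice, with 18 false calls, and 68 when changed 2-fold, with 12. Genes were drawn independently, so shifts shared by the genes of a mouse are not covered. Nor are changes in genes under 5 CPM, such as Ciita and Rgs1 with means of 4.40 and 4.85 CPM.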

Additional observations from a re-analysis of the deposited data

How the results depend on the processing

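In the alternatives that left out no mouse, direction and side of the threshold were followed for the 10 genes. Both held in 110 of 110 values in *db/db* against *db/m* mice. For dapagliflozin against vehicle they held in 108, and in *db/db*-dapa mice against *db/m* in 98. The other 2 and 12 were calls in the same direction that the fit of all 9 mice with edgeR did not make. With single mice left out, the direction turned in 5 values of the first comparison and in 2 of the second. In *db/db* against *db/m* mice DESeq2 called 363 genes and a fit of only the 2 groups 115, against 197, and leaving out single mice gave 85 to 230. For dapagliflozin against vehicle (*db/db*-dapa and *db/db* mice) DESeq2 called 13 genes and voom with library weights 449, against 0, each with 1 of the 10, and leaving out single mice gave 0 to 272 genes and 0 to 2 of the 10. In *db/db*-dapa mice against *db/m* the count, 164 in edgeR, was 275 with no filter, 507 with DESeq2, 1619 with voom, 630 with only the 2 groups and 14 to 664 with single mice left out. Of the 10 genes voom called 7 there, only the 2 groups 1 and the replicate block 4 (Cd74, H2-Aa, H2-Eb1 and Csf1r), and leaving out single mice 0 to 1. Replicate numbers gave r of -0.323 to 0.563 between deviations of mice with the same number, so the block has no stated basis. Log2 fold changes changed sign in *db/db* against *db/m* mice for H2-Aa (-0.31 without *db/m* mouse 3 and -0.42 without *db/db* mouse 1, in a range of -0.42 to 0.65 with single mice left out), H2-Ab1 (0.058 without *db/m* mouse 1, range -0.91 to 0.058), H2-Eb1 (0.029 without *db/m* mouse 1, range -0.91 to 0.029) and Ciita (-0.046 without *db/m* mouse 2, range -0.046 to 0.98). H2-Ab1 for dapagliflozin against vehicle had 0.16 without *db/db* mouse 1 and 0.03 without *db/db*-dapa mouse 3, in a range of -0.68 to 0.16. With Spearman's correlation 4 of the 10 genes most like the mean course were shared. The cause was not tested. Depth limits Rgs1 and Ciita most, with lowest counts of 8 and 10.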

Other observations

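H2-Ea-ps, named after its values were seen, is annotated as a polymorphic pseudogene on chromosome 17 from 34341959 to 34344645, and encodes the alpha chain that pairs with H2-Eb1. In C57BL/6 mice its start is known to be deleted, yet reads were counted for it in every mouse, from 65 to 537 counts. Which MHC alleles the mice carried was not tested. It was read at 84.6, 63.0 and 14.7 CPM in *db/m* mice, at 22.1, 64.6 and 18.9 CPM in *db/db* mice and at 50.8, 28.0 and 17.0 CPM in *db/db*-dapa mice. The groups overlapped. Its ratio to H2-Eb1 per kb was 1.39, 1.48 and 1.06 in *db/m* mice, 0.480, 2.06 and 1.75 in *db/db* mice and 1.62, 1.97 and 1.98 in *db/db*-dapa mice, lowest in *db/db* mouse 1, where the count was 65. The log2 fold change was -0.62 (SE 0.61) in *db/db* against *db/m* mice, -0.15 (SE 0.62) for dapagliflozin against vehicle and -0.77 (SE 0.61) in *db/db*-dapa mice against *db/m*, with edgeR adjusted p values of 0.695, 0.968 and 0.494.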
